A study of Mus musculus with 12 samples.

Results

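The 10 genes described here encode proteins of the secondary (specific) and tertiary (gelatinase) granules of mouse granulocytes, or proteins that late granulocytes make together with them: Camp, Ngp, Ltf, Lcn2, Mmp8, Mmp9, Cd177, Chil3, Fcnb and Itgb2l. They were taken by name from the 27998 genes of the count tables. Their unique molecular identifiers (UMIs, each standing for 1 captured RNA molecule) were counted in 12 single-cell libraries of bone marrow cells enriched for c-Kit on magnetic beads. Every mouse was on a C57BL/6 background and received pIpC, which switches on the Mx1 promoter that drives Cre in Mx1-Cre mice, in 5 injections given on alternate days, at an age that the labels give as 8 to 12 weeks, while the study's own text gives a younger one. WT mice were Mx1-Cre negative. E2-KO mice were Mx1-Cre positive with Ezh2 f/f, G12D mice were Mx1-Cre positive with the LSL-NRas G12D+/- allele, and G12D/E2-KO mice carried Mx1-Cre with both sets of alleles. Cre therefore came with every mutant and was missing from WT, so its presence and the mutations cannot be told apart in a comparison with WT. Mx1-Cre is not restricted to a single type of blood cell. The times after pIpC were 2 weeks, 2 months and 4 months, called T1, T2 and T3, each genotype giving a single library at each, and the number of animals behind a library is not given in the sources used here. The 3 libraries of a genotype stand in for replicates, and the spread between them holds time as well as experimental error.

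Granulocytes build their granules in waves. Promyelocytes make the primary (azurophil) granules, which hold myeloperoxidase and the neutrophil serine proteases. Myelocytes and metamyelocytes then make the specific granules with lactoferrin, cathelicidin and lipocalin, and band cells add the gelatinase granules. The transcription factor C/EBP epsilon is known to be needed for specific granule genes, and PU.1 acts throughout the myeloid lineage. Ezh2 is the methyltransferase of Polycomb repressive complex 2, which marks histone H3 at lysine 27, and NRas G12D is a constantly active form of a RAS-pathway GTPase. The design asks how the lesions, alone and combined, alter marrow cells over time.

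Camp (cathelicidin, the precursor of an antimicrobial peptide), Ngp (neutrophilic granule protein, a cystatin-like protein), Ltf (lactoferrin, which binds iron) and Lcn2 (lipocalin 2, which binds the iron carriers of bacteria) are contents of the specific granules. Cd177 is a surface and granule-membrane glycoprotein of neutrophils, and Itgb2l encodes a beta integrin-like protein related to Itgb2. Mmp8 (a collagenase) and Mmp9 (gelatinase B) are matrix metalloproteinases of specific and gelatinase granules. Chil3 (chitinase-like 3, also known as Ym1) is a secreted lectin of granulocyte precursors and of some macrophages, and Fcnb (ficolin B) is a soluble pattern recognition protein of myeloid cells. Camp, Ngp and Ltf lie near each other on mm10 chromosome 9, at 109847379 to 109849617, 110419747 to 110423012 and 111019271 to 111042767, and Mmp8 lies on the same chromosome at 7558456 to 7568485. Fcnb (28076378 to 28084885), Lcn2 (32384633 to 32388252) and Mmp9 (164940780 to 164955850) are on chromosome 2. Chil3 is on chromosome 3 at 106147554 to 106167564, Cd177 on chromosome 7 at 24743983 to 24760311 and Itgb2l on chromosome 16 at 96422288 to 96443619. All are protein coding.

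RefSeq start sites on GRCm38.p6, the assembly that mm10 represents, gave an upstream window for 9 of the 10 genes (all but Mmp9). The windows of the 5 genes that passed in a fit over all 12 libraries below are printed, as upstream stretches of the genes the results turn on. Whether they control these genes was not measured. The RefSeq starts differ from the gene spans above: the Lcn2 window lies inside its span, and those of Ngp and Itgb2l reach into theirs. Each holds the 250 bases before the start site, 5′ to 3′ on the gene's own strand: Ngp chr9:110419558-110419807 (plus), Lcn2 chr2:32387740-32387989 (minus), Chil3 chr3:106167565-106167814 (minus), Itgb2l chr16:96443615-96443864 (minus) and Mmp8 chr9:7558179-7558428 (plus). Capitals mark the letters TTNNGNAA, a loose form of the C/EBP motif, and GAGGAAG, a core of the PU.1 motif, each searched on both strands.
Ngp: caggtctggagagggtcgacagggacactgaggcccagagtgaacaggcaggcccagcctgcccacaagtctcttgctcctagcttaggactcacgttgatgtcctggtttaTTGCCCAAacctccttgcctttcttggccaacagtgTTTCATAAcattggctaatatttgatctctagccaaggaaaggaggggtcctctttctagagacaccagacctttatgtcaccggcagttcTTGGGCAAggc
Lcn2: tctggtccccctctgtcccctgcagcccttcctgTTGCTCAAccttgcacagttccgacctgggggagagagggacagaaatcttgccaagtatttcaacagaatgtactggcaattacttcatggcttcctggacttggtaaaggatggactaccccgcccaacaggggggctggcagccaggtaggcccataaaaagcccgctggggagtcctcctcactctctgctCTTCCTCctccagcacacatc
Chil3: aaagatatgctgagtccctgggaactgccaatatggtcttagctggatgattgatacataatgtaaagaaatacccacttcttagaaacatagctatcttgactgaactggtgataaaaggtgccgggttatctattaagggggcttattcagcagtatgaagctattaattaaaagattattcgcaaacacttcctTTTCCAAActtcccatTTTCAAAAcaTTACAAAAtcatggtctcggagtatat
Itgb2l: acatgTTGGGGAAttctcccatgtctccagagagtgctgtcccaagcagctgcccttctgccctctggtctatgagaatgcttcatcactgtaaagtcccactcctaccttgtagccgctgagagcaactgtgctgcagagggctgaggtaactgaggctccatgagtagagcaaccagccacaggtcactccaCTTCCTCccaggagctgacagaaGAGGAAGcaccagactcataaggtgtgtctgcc
Mmp8: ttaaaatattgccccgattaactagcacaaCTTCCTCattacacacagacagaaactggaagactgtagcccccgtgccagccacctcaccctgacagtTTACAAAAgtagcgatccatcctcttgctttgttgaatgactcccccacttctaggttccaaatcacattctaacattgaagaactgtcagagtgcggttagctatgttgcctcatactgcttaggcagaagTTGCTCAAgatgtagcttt
The C/EBP letters were found in 8 of the 9 windows (all but that of Camp), against 36.8% of 32851 promoter windows of the same length. The PU.1 letters were found in 3 of the 9 windows (Lcn2, Mmp8 and Itgb2l), against 10.6% of all windows. Both motifs occur together in the windows of Lcn2, Mmp8 and Itgb2l. A match describes these letters only, and binding in these cells was not measured.

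Before any comparison the libraries were checked against each other. Of the 5648 cells deposited for G12D at T1, 2896 (51.3%) were also deposited for G12D/E2-KO at the same time, where they made up 95.1% of the 3044 cells. Of these pairs 1494 were equal in every gene, and the rest were matched by a similarity of their counts above 0.9, which no cell of any other pair of libraries reached. In those of the shared cells that passed the gate defined below, Ezh2 stood at 12.98 CPM (counts per 1000000, the UMIs of a gene over all UMIs of the same cells), against 40.2 to 51.7 CPM in gated cells of the G12D libraries without them and 14.2 to 15.7 CPM in those of E2-KO. The shared cells were counted in G12D/E2-KO T1 only, which left 2752 cells in G12D T1 and 32701 cells in all. Cells of this pair of libraries left unmatched reached a similarity of 0.8967, above the 0.8525 of any other pair. Some shared cells may therefore remain in G12D T1. The other 65 pairs of libraries shared no cell. Among gated cells Ezh2 ran from 49.9 to 56.2 CPM in WT and 12.6 to 26.2 CPM in G12D/E2-KO, the lowest value being that of T1, which holds the shared cells. UMIs from the 3′ end do not show the NRas allele. Over all cells of the T3 libraries, those of WT, E2-KO and G12D held Xist at 1296 to 1357 CPM and that of G12D/E2-KO at 0.130 CPM, so at T3 the double mutant cells came from the other sex than the cells they are set against, and sex and genotype cannot be told apart there. All T1 and T2 libraries held at most 0.608 CPM of Xist.

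The genes were read over all cells of a library and within a granulocyte gate, which takes cells with at least 1000 UMIs of S100a8, S100a9, Camp and Ngp together per 10000 UMIs. The gate held 9949 of the 32701 cells (30.4%), with 450 to 1329 per library. It is a range on a score and not a cell type. Only 116 cells lay between 1000 and 1100 and 112 cells between 900 and 1000, with Lcn2 at 968 CPM just inside and 805 CPM just outside the limit, and Fcnb at 877 and 1043 CPM. Because Camp and Ngp are among the gate's own genes, their level within it is partly set by the choice of cells. Kit, on which the cells were enriched, ran from 12.5 to 27.1 CPM in the gate against 43.6 to 80.8 CPM over all cells. All 10 genes passed the filter on low counts in both readings.

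Together the 10 genes made up 10.6 to 15.7% of all UMIs in gated cells and 1.49 to 4.89% of the UMIs of whole libraries. The gate held most of the members' UMIs. For Camp, Ngp, Ltf, Lcn2, Cd177, Mmp9 and Itgb2l it held at least 75.6% in every library. For Fcnb the share ran from 53.7% (G12D/E2-KO T3) to 88.5%, for Chil3 from 64.1% (also G12D/E2-KO T3) to 95.9%, and for Mmp8, which had few UMIs, from 34.6% (E2-KO T2) to 89.8%.

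Outside the gate, cells were split by scores into a haemoglobin gate (at least 1000 UMIs of 4 globin genes per 10000), a promonocyte gate (at least 20 of 6 monocyte markers, F13a1 and Csf1r among them), a primary granule gate (at least 100 of 6 markers, Mpo and Elane among them) and the rest. Red cell precursors should lack granule genes, and Camp still stood at 416 to 1717 CPM in the haemoglobin gate. There, Ngp, Ltf and Lcn2 stood in much the same ratio to Camp as in gated granulocytes. Ltf, for example, had 44.6 to 86.0 UMIs per 1000 UMIs of Camp in the haemoglobin gate and 31.6 to 63.7 in the granulocyte gate. Such low levels may be free RNA and were not read as expression, but their source was not tested. Fcnb, Mmp8 and Chil3 departed from this pattern in some classes. In the primary granule gate Fcnb stood at 79.1 to 229 CPM, or 39.5 to 121 UMIs per 1000 UMIs of Camp. This ratio lay above the 6.72 to 16.7 of gated granulocytes and the 9.13 to 21.8 of the haemoglobin gate in all 12 libraries. Mmp8 stood above its granulocyte ratio of 0.0533 to 1.68 per 1000 in the promonocyte gate of all 12 libraries, at 4.79 to 204, which rests on 2 to 28 Mmp8 UMIs in a library. The highest values of that gate, 204 for Mmp8 and 883 for Lcn2 (79.7 to 124 in the granulocyte gate), were those of G12D/E2-KO T3, which also led for Chil3, as given further on.

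**Figure D1:**
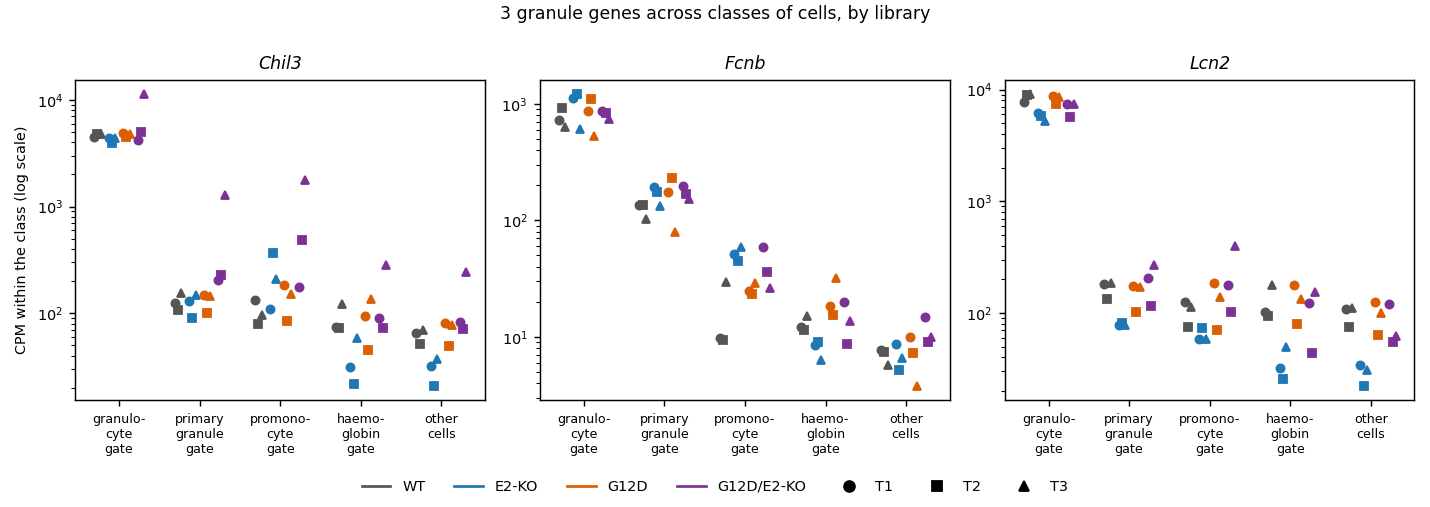
CPM (log axis) of Chil3, Fcnb and Lcn2 in the granulocyte gate and in 4 classes of cells outside it, 1 point per library with color for genotype and shape for time. Lcn2 stood at 22.4 to 395 CPM in the classes outside the gate, Fcnb kept 79.1 to 229 CPM in the primary granule gate, and Chil3 of G12D/E2-KO T3 stood above the other 11 libraries in every class.

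To compare how many cells held each RNA, every cell was thinned to 1400 UMIs, which dropped no cell. Camp and Ngp then had a UMI in at least 98.5% of gated cells in every library, Chil3 in 91.1 to 100% and Lcn2 in 89.0 to 99.03%. Ltf was detected in 69.7 to 96.3%, Fcnb in 35.7 to 66.5% and Cd177 in 32.4 to 46.5% of gated cells. Mmp9 (6.89 to 22.0%), Itgb2l (4.93 to 22.5%) and Mmp8 (0.649 to 10.7%) were sparse. In the haemoglobin gate the shares were at most 1.82% for Cd177, 1.69% for Mmp9, 1.30% for Mmp8 and 0.909% for Itgb2l, but up to 94.4% for Camp and 77.02% for Ngp. Without thinning, Itgb2l was seen in 14.8 to 56.6% and Mmp8 in 1.51 to 14.8% of gated cells, at median depths of 3293 to 5643 UMIs per cell.

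The granule genes did not all rise alike with S100a8 and S100a9. Gated cells were ordered by S100a8 and S100a9 (calprotectin subunits of the cytosol, which accumulate late), per 10000 UMIs, into ranges of 1000 to 2000, 2000 to 3000 and 3000 or more. Mmp9 and Mmp8 made most of their gain in the last range. The median over 12 libraries went from 11.3 to 74.3 to 242 CPM for Mmp9 and from 9.77 to 16.9 to 117 CPM for Mmp8, and both were higher in the last range than in the first in 12 of 12 libraries. Ltf (1395, 4445 and 5183 CPM) and Cd177 (219, 429 and 486 CPM) made most of their gain by the middle range, as did Lcn2 (3216, 8553 and 10460 CPM) and Camp (61879, 77180 and 81068 CPM). These, too, were higher in the last range than in the first in 12 of 12 libraries. Ngp (33842, 60535 and 53917 CPM), Chil3 (2988, 5552 and 4937 CPM) and Itgb2l (90.8, 143 and 137 CPM) had their highest median in the middle range. Fcnb ran the other way, with medians of 1347, 941 and 409 CPM, and was lower in the last range in 12 of 12 libraries. Gated cells under 1000, which entered the gate with the help of Camp and Ngp, lie outside these ranges. They formed 1.53% (WT T2) to 21.3% (G12D/E2-KO T3) of gated cells. The last range held 23 to 626 cells in a library. S100a8 and S100a9 are themselves gate genes, and this order is a description. CPM also counts S100a8 and S100a9 in its total, which lowers every other gene as they rise. The small drops of Ngp, Chil3 and Itgb2l after the middle range are therefore not read as peaks.

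**Figure D2:**
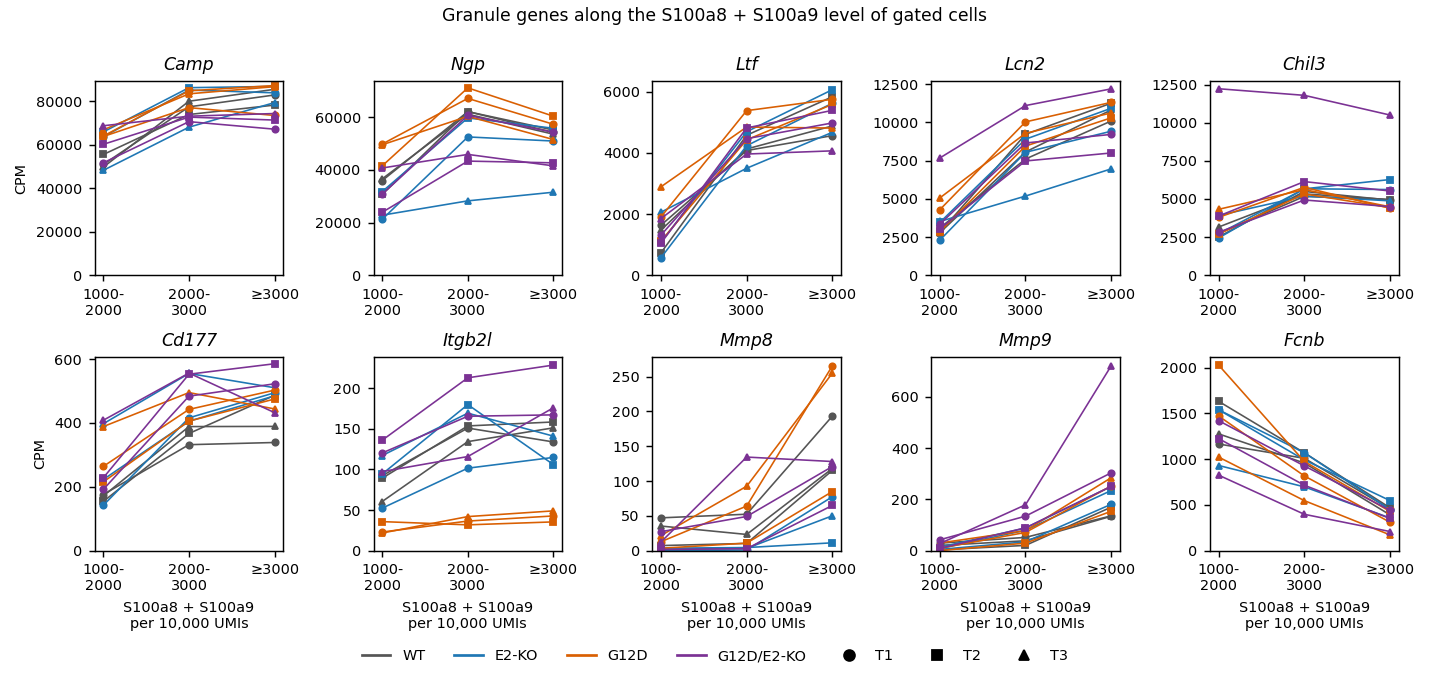
CPM of the 10 genes in gated cells at rising S100a8 and S100a9 levels (UMIs per 10,000), 1 line per library, with color for genotype and shape for time. By their medians Mmp8 and Mmp9 gained most in the last range and Ltf, Lcn2, Cd177 and Camp before it, and Fcnb was lower in the last range than in the first in all 12 libraries.

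The make-up of the gate along this axis differed between libraries. Cells at 3000 or more formed 45.9 to 65.8% of gated cells in WT, 10.2 to 46.8% in E2-KO, 25.2 to 37.0% in G12D, and 35.7, 19.6 and 5.10% in the G12D/E2-KO libraries in order of time. A gene that changes along the axis can therefore differ between libraries with the mix of cells, and the main values below are given beside those in a band of S100a8 and S100a9.

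The share of cells in the gate was 33.4, 34.5 and 39.8% in WT and 18.4, 15.7 and 18.5% in E2-KO at T1, T2 and T3, so these groups did not overlap. G12D gave 37.7, 38.7 and 40.3%. In G12D/E2-KO the share was 43.7% at T1, 28.1% at T2 and 17.2% at T3. Over the 6 pairs of libraries matched for NRas genotype and time, Ezh2 deletion went with a mean difference of -13.8 percentage points (SD 10.7), lower in 5 of 6 (p = 0.0625 by an exact permutation test that flips signs, two-sided, where 6 pairs cannot go below 0.03125). Over the 6 pairs matched for Ezh2 and time, NRas G12D went with 7.54 points more (SD 9.89), higher in 5 of 6 pairs (same exact test, p = 0.09375). Adjusted over the 2 tests both p-values were 0.09375, and neither passed 0.05. The shares are of cells kept by the c-Kit beads, with a single library per genotype and time, and gated cells were low in Kit. Any part of the enrichment in these differences was not tested.

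The first comparison of levels asks what the granule genes did with loss of Ezh2 alone. Over all cells Mmp8 and Chil3 fell in E2-KO, and the other 8 genes stood below WT without passing the test. Mmp8 had 37.5, 13.7 and 25.0 CPM in WT at T1, T2 and T3 and 2.84, 1.21 and 4.35 CPM in E2-KO. Chil3 had 1127, 1243 and 1312 CPM in WT and 651, 465 and 664 CPM in E2-KO. For both genes all 3 E2-KO libraries lay below all 3 WT libraries. The same held for Camp, Ngp, Ltf, Lcn2, Cd177 and Itgb2l, which did not pass, so this does not set the 2 genes apart. How many of all genes separated this way was not counted. The log2 change was -3.28 for Mmp8 (SE 0.47, edgeR quasi-likelihood test, adjusted p = 0.0119) and -1.09 for Chil3 (SE 0.15, edgeR adjusted p = 0.00455). Thus 2 of 10 genes passed in the lower direction, where 0.288% of the 12848 genes tested did (1.59% in either direction), and the median log2 change of the 10 was -1.22 against 0.00425 over all genes.

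Of the rest, Lcn2 came nearest to the threshold, at 1961, 2276 and 2455 CPM in WT and 866, 662 and 751 CPM in E2-KO (log2 change -1.62, SE 0.35, edgeR adjusted p = 0.0603). Ngp had a change of -1.62 (adjusted p = 0.11), Ltf -1.42, Itgb2l -1.24, Mmp9 -1.21, Camp -1.06, Cd177 -0.94 and Fcnb -0.43. Over whole libraries, fewer granulocytes among the enriched cells and less RNA per granulocyte cannot be told apart, and the gate's share of cells, given above, was lower in the same libraries. The summed erythroid markers ran from 33612 to 94489 CPM in E2-KO and 21906 to 44122 CPM in WT over all cells. Some other sets did not overlap there. Late granulocyte markers other than the 10 genes summed to 24524 to 42133 CPM in E2-KO and 73892 to 88091 CPM in WT. S100a8 and S100a9 are among them. Megakaryocytic markers summed to 151 to 187 CPM in E2-KO and 302 to 377 CPM in WT. B lymphoid markers summed to 1039 to 1190 against 68.9 to 1034 CPM, and those of the cell cycle to 1010 to 1064 against 884 to 982 CPM. With granule and haemoglobin genes left out of the library totals the same 2 genes passed, at -3.28 for Mmp8 (edgeR adjusted p = 0.011) and -1.10 for Chil3 (edgeR adjusted p = 0.0041). Any part of erythroid or other cells beyond the totals was not tested. The Mmp8 call was lost without E2-KO T1 or E2-KO T2, with the shared cells out of both tables, and also with time left out of the fit (edgeR adjusted p = 0.154), each of which left Chil3 alone. Without G12D/E2-KO T3, whose spread enters the common fit, 8 of the 10 genes passed where 3.5% of all genes did. Without G12D/E2-KO T1, 4 passed (2.42% of all genes), and without WT T1 3 did (1.11%).

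Within the gate the genes that fell in E2-KO were Mmp8, Lcn2 and Ngp. Mmp8 had 122, 46.7 and 80.4 CPM in WT at T1, T2 and T3, and 13.4, 3.88 and 23.7 CPM in E2-KO, the latter from 34, 9 and 41 UMIs. Every E2-KO library lay below every WT library. Its log2 change was -2.96 (SE 0.42, edgeR adjusted p = 0.0075). Lcn2 had 7814, 8946 and 9113 CPM in WT, and 6133, 5806 and 5206 CPM in E2-KO, again without overlap (log2 change -0.77, SE 0.16, edgeR adjusted p = 0.0104). Ngp stood at 51514, 54506 and 53252 CPM in WT and at 40163, 41514 and 26846 CPM in E2-KO, also without overlap (log2 change -0.76, SE 0.19, edgeR adjusted p = 0.0299). These 3 of 10 genes compare with 1.21% of the 9287 genes tested that passed in the lower direction (3.5% in either direction). The median log2 change of the 10 was -0.39, against -0.00268 over all genes. Ngp and Camp helped to choose the gated cells, so the Ngp value is not independent of the gate. Of the 8 members that are not gate genes 2 fell, with a median of -0.39. With the gate on S100a8 and S100a9 alone, Ngp differed by -0.84 (SE 0.19, edgeR adjusted p = 0.0178). In the same gated cells the summed erythroid markers ran from 1259 to 3739 CPM in E2-KO and 1645 to 1977 CPM in WT. Some other sets did not overlap. Late granulocyte markers other than the 10 genes, with the gate genes S100a8 and S100a9 among them, summed to 199490 to 282300 CPM in E2-KO. They summed to 283230 to 322130 CPM in WT. Markers of granulocyte-macrophage progenitors and early granulocytes summed to 6040 to 11834 CPM in E2-KO and 2605 to 4070 CPM in WT. Those of the cell cycle summed to 1066.5 to 1099.5 against 853.8 to 1000.2 CPM, and megakaryocytic markers to 6.36 to 14.1 against 24.9 to 56.4 CPM. Their part in these changes was not tested.

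Among the other members, Ltf was lower in E2-KO without passing the test. It had 3765, 4448 and 4277 CPM in WT and 3148, 2767 and 3395 CPM in E2-KO (log2 change -0.60, SE 0.23, edgeR adjusted p = 0.192), and the libraries did not overlap. Camp stood at 72694, 71870 and 79206.5 CPM in WT and 75276, 72811 and 64819 CPM in E2-KO (log2 change -0.25, edgeR adjusted p = 0.416), with overlap. Chil3, which fell over all cells, had 4462, 4825 and 4810 CPM in WT and 4410, 3922 and 4421 CPM in E2-KO in the gate (log2 change -0.32, SE 0.18, edgeR adjusted p = 0.383). The E2-KO libraries again lay below those of WT, by less than over all cells. Cd177 (log2 change -0.12), Mmp9 (-0.36) and Itgb2l (-0.43) had adjusted p-values of 0.409 to 0.749, and Fcnb was the only gene of the 10 with a change above 0, at 0.15 (adjusted p = 0.664).

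**Figure D3:**
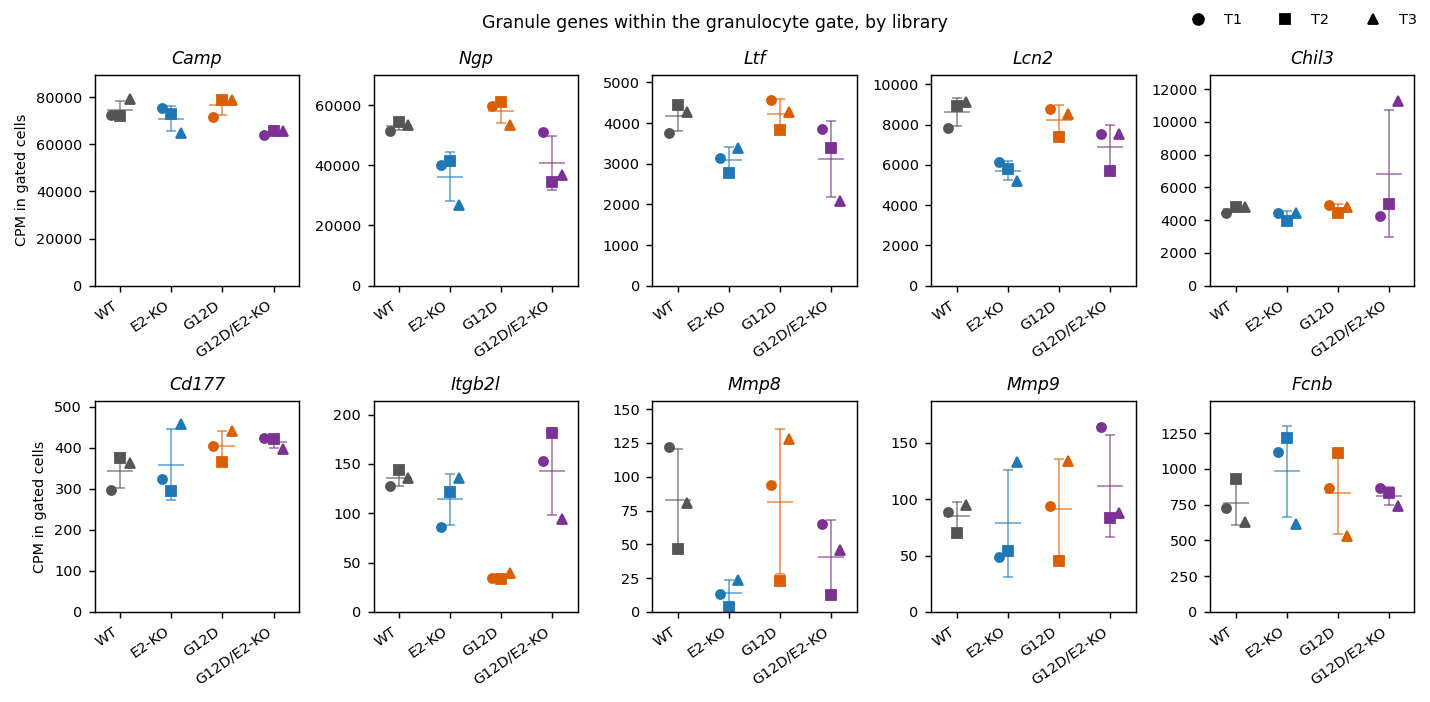
CPM of the 10 genes in gated cells of each of the 12 libraries; horizontal bars are genotype means and whiskers the SD over 3 libraries (n = 3). The E2-KO libraries lie below the WT libraries for Mmp8, Lcn2, Ngp, Ltf and, narrowly, Chil3, the G12D libraries lie below all others for Itgb2l at 33.2 to 39.3 CPM, and G12D/E2-KO T3 stands apart for Chil3 at 11301 CPM. How many of all genes separate in these ways was not counted.

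The calls in E2-KO were read again with the mix of cells held closer. Among cells with 2000 to 4000 UMIs of S100a8 and S100a9 per 10000, the log2 changes were -2.95 for Mmp8 (SE 0.57, edgeR adjusted p = 0.0577), -0.34 for Lcn2 (edgeR adjusted p = 0.268) and -0.43 for Ngp (edgeR adjusted p = 0.279), so that none of the 10 genes passed, with 3 at an unadjusted p under 0.05, where 15.4% of all genes in the band were. The size for Mmp8 hardly moved, while those for Lcn2 and Ngp shrank. The band crosses 3000, where Mmp8 rises, with medians of 16.9 CPM at 2000 to 3000 and 117 CPM at 3000 or more. The mix of cells is therefore not held fixed for Mmp8 in the band. At 3000 or more, Mmp8 had 193, 115 and 118 CPM in the 3 WT libraries and 77.4, 11.1 and 50.01 CPM in the 3 E2-KO libraries, the latter from 105, 47 and 224 cells. Lcn2 overlapped there, at 10093, 11258 and 10817 CPM in WT and 9423, 10926 and 6959 CPM in E2-KO. Ngp had 54264, 55150 and 53570 CPM in WT at this level and 50974, 55825 and 31533 CPM in E2-KO, where T3 was lowest. With time left out of the fit, Lcn2 kept its call in the gate (edgeR adjusted p = 0.0132), and Mmp8 (adjusted p = 0.219) and Ngp (0.053) did not. Mmp8 also lost its call with the shared cells out of both tables, and Ngp with the gate at 2000. The Mmp8 call in the gate was also lost without E2-KO T1 (adjusted p = 0.0517). The Lcn2 and Ngp calls were lost without WT T2, WT T3, E2-KO T1 or E2-KO T3, at adjusted p-values up to 0.128 and 0.210, and the Ngp call also without G12D T1 or G12D T2. With the T1 and T2 libraries alone Mmp8 kept its call (log2 change -3.58, adjusted p = 6.22e-07), and Lcn2 (adjusted p = 0.0760) and Ngp (adjusted p = 0.218) did not.

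The second comparison asks what the granule genes did with NRas G12D alone. Itgb2l fell in gated cells and was the only gene of the 10 to pass. It had 127, 144 and 136 CPM in WT at T1, T2 and T3 and 34.3, 33.2 and 39.3 CPM in G12D, from 512, 839 and 685 UMIs in WT and 192, 151 and 172 UMIs in G12D. The groups did not overlap, and the G12D libraries were the lowest of all 12. The log2 change was -1.96 (SE 0.26, edgeR adjusted p = 0.0144). This 1 of 10 compares with 0.0323% of genes tested in the gate that passed in the lower direction (0.151% in either). In thinned cells Itgb2l was detected in 17.8 to 19.2% of gated WT cells and 4.93 to 5.74% of gated G12D cells. Its integrin relative Itgb2 stood at 118 to 149 CPM in WT and 148 to 161 CPM in G12D in the same cells. Sets of cell type markers also differed between these groups without overlap in the gate. Late granulocyte markers other than the 10 genes summed to 253590 to 271890 CPM in G12D and 283230 to 322130 CPM in WT. Summed erythroid markers ran from 736 to 1430 CPM in G12D and 1645 to 1977 CPM in WT, megakaryocytic markers from 6.98 to 14.2 against 24.9 to 56.4 CPM, and those of stem and multipotent progenitors from 16.5 to 19.7 against 24.6 to 39.3 CPM. The T and NK markers summed to 290 to 390 CPM in G12D and 134 to 231 CPM in WT, through Cd3d at 137 to 155 against 2.06 to 4.97 CPM, while Cd3e was at 0 in every library. Their part in the Itgb2l value was not tested.

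The Itgb2l difference was of like size in the upper part of the S100a8 and S100a9 axis. At 3000 or more the G12D libraries had 42.7, 35.4 and 48.9 CPM of Itgb2l and the WT libraries 134, 159 and 151 CPM, and in the band of 2000 to 4000 the log2 change was -1.95 (edgeR adjusted p = 1.36e-05). The call in the gate was lost without WT T1 (adjusted p = 0.168), WT T3 (0.126), E2-KO T2 (0.0632), G12D T1 (0.0697) or G12D T2 (0.0532), while the log2 change stayed between -2.08 and -1.82 with any 1 library left out. It was also lost with the gate set at 500 UMIs of its genes per 10000 (log2 change -1.93, edgeR adjusted p = 0.0546) and with the tables as deposited, where the shared cells, at 154 CPM of Itgb2l, lift G12D T1 to 103 CPM (log2 change -1.30). With the shared cells taken out of both tables, which leaves the G12D and WT libraries as they are, the change was -1.95 (edgeR adjusted p = 0.00035).

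The other 9 genes had small log2 changes between G12D and WT in the gate, from -0.25 (Mmp8, SE 0.33) to 0.19 (Cd177, SE 0.17), each with an edgeR adjusted p of 0.999. Camp had 71778, 79076 and 78836 CPM in G12D and Lcn2 8798, 7377 and 8530 CPM, both overlapping with WT. Over all cells none of the 10 passed in edgeR, where 0.109% of all genes did. At an unadjusted p under 0.05 there was 1 of the 10 and 11.8% of all genes, and DESeq2 called 0 of the 10 and 0.715% of all genes. The DESeq2 shares are over a wider base, the 19993 genes with a UMI here and 16534 in the gate. Itgb2l, at 32.6, 37.6 and 36.9 CPM in WT and 10.5, 9.39 and 10.9 CPM in G12D over all cells, differed by -1.77 on the log2 scale there (SE 0.51, edgeR adjusted p = 0.305), and it passed without G12D/E2-KO T3.

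The third comparison sets the double mutant against the same WT libraries. None of the 10 genes passed in edgeR in either reading. Over all cells 5.69% of all genes passed. At an unadjusted p under 0.05 there was 1 of the 10, below the 26.2% of all genes, and DESeq2 called 1 (Mmp8) where it called 6.4% of all genes. In the gate 2.78% of all genes passed in edgeR. There 5 of the 10 and 17.8% of all genes had an unadjusted p under 0.05, and DESeq2 called 3 (Lcn2, Mmp8 and Ngp) where it called 1.26% of all genes. Ngp is a gate gene, and of the 8 members that are not, DESeq2 called 2. Lcn2 had 7513, 5684 and 7516 CPM in gated cells of the double mutant in order of time (log2 change from WT -0.54, SE 0.16, edgeR adjusted p = 0.0767), all below the WT values. Mmp8 had 64.9, 12.2 and 45.7 CPM, which overlaps with WT (log2 change -1.34, SE 0.35, edgeR adjusted p = 0.0863). Ngp had 51176, 34523 and 36840 CPM, just below the lowest WT library at T1 and further below it later (log2 change -0.60, SE 0.19, edgeR adjusted p = 0.0889). In the band of S100a8 and S100a9 these changes were smaller, at -0.16 for Lcn2, -0.63 for Mmp8 and -0.37 for Ngp, and the edgeR adjusted p-values of the 10 genes ran from 0.092 (Cd177) to 0.758 (Itgb2l). Some marker sets did not overlap between the double mutant and WT in the gate. Those of granulocyte-macrophage progenitors and early granulocytes summed to 5749 to 6609 against 2605 to 4070 CPM, and erythroid markers to 727 to 1302 against 1645 to 1977 CPM. Late granulocyte markers other than the 10 genes summed to 167270 to 270450 against 283230 to 322130 CPM. Their part in these changes was not tested.

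Ltf had 3865, 3398 and 2076 CPM in the double mutant (log2 change from WT -0.62, edgeR adjusted p = 0.183), and its T1 value overlapped with WT. Camp stood at 64144, 65545 and 65755.5 CPM, below every WT library (log2 change -0.40, edgeR adjusted p = 0.17). Without G12D/E2-KO T1, 4 of the 10 genes passed in the gate (Lcn2, Mmp8, Ngp and Ltf) and 3 over all cells, where 4% and 5.29% of all genes passed. Of the 8 members that are not gate genes, 3 passed in the gate in that fit. Without WT T1, 2 of the 10 passed in the gate (2.59% of all genes), and 1 of the 8 that are not gate genes did. Without WT T3 or G12D T3, Mmp8 passed alone in the gate, where 0.856% and 2.56% of all genes did.

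The fourth comparison asks what the granule genes did with loss of Ezh2 where NRas G12D was present, and Itgb2l rose. In gated cells it had 34.3, 33.2 and 39.3 CPM in G12D and 153, 181 and 94.5 CPM in G12D/E2-KO, from 1202, 727 and 155 UMIs in the latter. Each double mutant library lay above each G12D library. The log2 change was 1.87 (SE 0.27, edgeR adjusted p = 0.00314), so 1 of 10 genes passed in the higher direction against 1.62% of genes tested (2.54% in either direction). The call held without any single library, at log2 changes of 1.61 to 2.22, and with the shared cells taken out of both tables (1.68, adjusted p = 0.000896), although G12D/E2-KO T1 then holds only 148 cells, 78 of them gated. Cd3d stood at 3.66 to 81.8 CPM in gated cells of G12D/E2-KO, below the 137 to 155 CPM of G12D, and summed markers of stem and multipotent progenitors at 29.1 to 61.0 against 16.5 to 19.7 CPM. Markers of granulocyte-macrophage progenitors and early granulocytes summed to 5749 to 6609 CPM in gated cells of G12D/E2-KO and 3598 to 4944 CPM in those of G12D. The part of these markers in the values of Itgb2l and the other genes was not tested. In the band of S100a8 and S100a9 the change was 2.07 (edgeR adjusted p = 2.94e-06). The call was lost with the tables as deposited (log2 change 1.16, adjusted p = 0.457). The log2 difference of the double mutant from WT was -0.09 (SE 0.25, adjusted p = 0.89). Thinned cells held an Itgb2l UMI in 21.0, 22.5 and 12.6% of gated cells of G12D/E2-KO, against 11.1 to 18.4% in E2-KO.

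Among the other genes of this comparison, Ngp came nearest to the threshold in the gate, differing by -0.68 on the log2 scale (SE 0.19, edgeR adjusted p = 0.0591), with 59593, 60985 and 53500 CPM in G12D above every double mutant library. Mmp8 differed by -1.09 (adjusted p = 0.152), Ltf by -0.59 (0.208), Lcn2 by -0.43 (0.16) and Camp by -0.40 (0.173), and none of these passed. In the band the differences were -0.47 for Ngp (edgeR adjusted p = 0.204), -0.56 for Mmp8, -0.24 for Ltf, -0.17 for Lcn2 and -0.29 for Camp. With the gate on S100a8 and S100a9 alone, which does not select cells on Ngp, Ngp passed, at -0.77 (edgeR adjusted p = 0.0315). Mmp9, at 163, 83.1 and 87.8 CPM in G12D/E2-KO and 93.6, 45.3 and 134 CPM in G12D, overlapped. Cd177 lay at 398 to 425 CPM in G12D/E2-KO and 366 to 441 CPM in G12D, and Fcnb at 739 to 866 CPM against 530 to 1109 CPM. Without G12D/E2-KO T1, 5 of the 10 genes passed in the gate (Lcn2, Mmp8, Ngp, Ltf and Itgb2l) where 4.71% of all genes did. Ngp is a gate gene, and of the 8 members that are not, 3 fell and 1 rose in that fit. Without WT T1, WT T2, WT T3 or E2-KO T3, 2 of the 10 passed in the gate (1.95 to 3.18% of all genes), Itgb2l with Ngp or Mmp8. Over all cells none of the 10 passed in edgeR, where 1.36% of all genes did. At an unadjusted p under 0.05 there were 2 of the 10 and 14.8% of all genes, and DESeq2 called 0 of the 10 and 1.77% of all genes. Without G12D/E2-KO T1, 3 passed over all cells (2.69% of all genes).

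The interaction asks whether the effect of Ezh2 loss differed between the NRas backgrounds, as the change from G12D to G12D/E2-KO minus the change from WT to E2-KO. None of the 10 genes passed in edgeR. In the gate 0.0754% of all genes passed in edgeR. There 3 of the 10 and 3.82% of all genes had an unadjusted p under 0.05, and DESeq2 called 1 of the 10 and 0.0968% of all genes. Over all cells 0.0934% of all genes passed in edgeR, 3 of the 10 and 3.59% of all genes had an unadjusted p under 0.05, and DESeq2 called 3 of the 10 and 0.275% of all genes. Itgb2l had a difference of 2.30 on the log2 scale in the gate (SE 0.37, edgeR adjusted p = 0.0616). It passed in the band of 2000 to 4000 UMIs of S100a8 and S100a9, at 2.27 (edgeR adjusted p = 0.000506), with the T1 and T2 libraries alone, at 2.77 (edgeR adjusted p = 9.53e-07), in DESeq2, at 2.28 (adjusted p = 8.57e-08), with time left out of the fit, at 2.29 (edgeR adjusted p = 0.0082), with no filter, with the gate at 2000, with the shared cells out of both tables, and also without E2-KO T3, G12D/E2-KO T1 or G12D/E2-KO T3. Over all cells the difference for Chil3 was 1.19 (SE 0.21, edgeR adjusted p = 0.0939), and that for Mmp8 was 2.17 (edgeR adjusted p = 0.683).

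**Figure D4:**
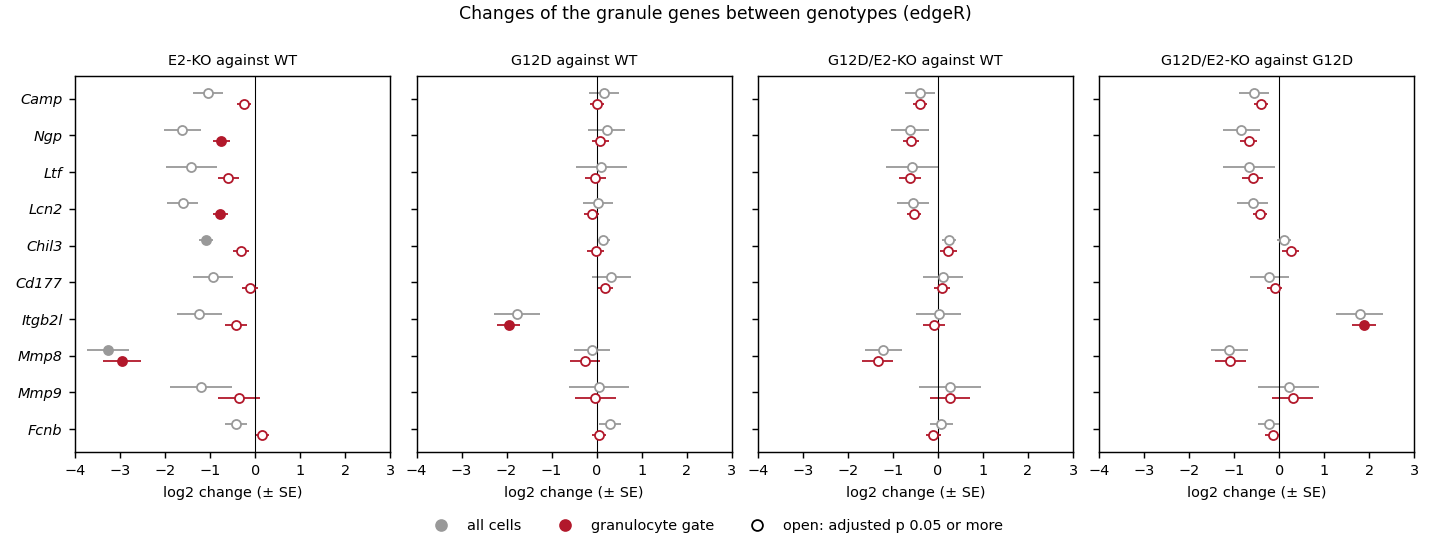
Log2 change with its SE (edgeR, 12 libraries) of the 10 genes in 4 comparisons, over all cells in grey and in gated cells in red; filled points passed an adjusted p of 0.05. Mmp8 stands at -3.28 and -2.96 in E2-KO against WT, and Itgb2l moves from -1.96 in G12D against WT to 1.87 in G12D/E2-KO against G12D.

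Chil3 of the double mutant at T3 stood apart from every other library. In gated cells the double mutant had 4248, 4984 and 11301 CPM at the successive times, against 3922 to 4984 CPM over the 11 libraries other than the last. Outside the gate it stood at 753 CPM, where the other 11 libraries had 48.0 to 147 CPM. By class, this library had 1275 CPM in the primary granule gate (others 91.0 to 230 CPM), 1787 CPM in the promonocyte gate (others 79.5 to 483 CPM) and 281 CPM in the haemoglobin gate (others 21.8 to 134 CPM). Relative to Camp, Chil3 had 512 UMIs per 1000 in the primary granule gate of this library, against 51.4 to 121 in the others, and 172 per 1000 in its granulocyte gate. Its mean for the double mutant was 6844 ± 3877 CPM (SD, n = 3) in the gate, and the comparison with WT did not pass (log2 change 0.23, SE 0.18, edgeR adjusted p = 0.544). Chil4, a near-identical copy, was counted at 51.8 CPM in the gate of this library and 10.0 to 31.9 CPM in the others, and reads of these copies could be assigned to either, so the Chil3 level is uncertain.

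The genes around the 10 in granulocyte development were taken as lists and are described by counts beside the share of all genes that passed in either direction, since no test of a list was run. Of 11 primary granule genes, 7 rose and 1 fell in gated E2-KO cells against WT, where 3.5% of genes tested passed. The median log2 change of the list was 1.09, opposite in sign to the -0.39 of the 10 genes. Prtn3 (proteinase 3) had 481 to 878 CPM in WT and 1651 to 3130 CPM in E2-KO (log2 change 1.75, SE 0.15, edgeR adjusted p = 8.78e-07). Mpo (myeloperoxidase) had 215 to 289 CPM in WT and 705 to 1085 CPM in E2-KO (log2 change 1.67, edgeR adjusted p = 1.96e-06). Srgn (serglycin, the proteoglycan that packs granule proteases) and Elane (neutrophil elastase) rose by 1.66 and 1.36 on the log2 scale. The gene that fell was Serpinb1a (an inhibitor of these proteases), at -0.58, named after its value was seen. In the band of 2000 to 4000 UMIs of S100a8 and S100a9 the changes kept their direction without passing, at 1.57 for Prtn3 (edgeR adjusted p = 0.11), 1.15 for Mpo (0.367), 1.24 for Srgn (0.259) and 1.25 for Elane (0.283).

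In the double mutant against WT, Prtn3, Srgn and Mpo rose in the gate, by 1.16, 0.91 and 0.90 on the log2 scale, which makes 3 of 11 where 2.78% of genes passed. Against G12D, again 3 of 11 passed where 2.54% of genes did: Prtn3 and Srgn rose by 0.96 and 0.64, and Serpinb1a fell by 0.59. In the band none of the Prtn3, Srgn and Mpo calls of the double mutant passed (edgeR adjusted p = 0.221 to 0.687), and Serpinb1a passed against G12D (-0.64). The Srgn call against G12D was lost without any 1 of the G12D libraries or G12D/E2-KO T2, and that of Serpinb1a without any 1 of 6 libraries. For Mpo the interaction passed in the gate, at -1.31 (SE 0.21, edgeR adjusted p = 0.0149), with 321 to 458 CPM in G12D and 419 to 649 CPM in G12D/E2-KO, where 0.0754% of genes passed. This call was lost with time left out of the fit (adjusted p = 0.161), without any 1 of WT T1, WT T2, E2-KO T1, E2-KO T2 or the G12D libraries (adjusted p up to 0.106) and in the band (-0.63, adjusted p = 0.9997). In G12D against WT none of the 11 passed in edgeR, with 3 in the gate and 4 over all cells at an unadjusted p under 0.05 (4.63% and 11.8% of all genes). Over all cells none passed in E2-KO either, with 2 at an unadjusted p under 0.05 (16.1% of all genes), and Ctsc (cathepsin C, which activates these proteases) rose in the double mutant against WT by 1.14 (edgeR adjusted p = 0.0449), 1 of 11 where 5.69% of genes passed, a call lost without any 1 of 8 libraries (adjusted p up to 0.198).

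A list of 38 other late granulocyte genes had 33 tested in the gate. In E2-KO against WT, Pirb (an inhibitory receptor), Fpr2 (a formyl peptide receptor) and Slpi (a protease inhibitor) fell by 1.082, 0.90 and 0.78 on the log2 scale, and Anxa3 (an annexin) rose by 0.58. These 4 of 33 compare with 3.5% of genes that passed. Pirb stood at 176 to 197 CPM in WT and 93.1 to 118 CPM in E2-KO without overlap (edgeR adjusted p = 0.00414). Over all cells Pirb was the only gene of this list to pass in E2-KO, at -1.80 (edgeR adjusted p = 0.0234), and 1 of 34 lies near the 1.59% of all genes that passed. The median log2 change of the list in the gate was -0.37. The call for Pirb in the gate was lost without WT T2 (adjusted p = 0.0661) and over all cells without WT T2, WT T3 or any 1 E2-KO library. That for Fpr2 was lost without WT T2 or E2-KO T1, that for Slpi without WT T2, WT T3, E2-KO T1 or E2-KO T3, and that for Anxa3 without any 1 of the WT, E2-KO or G12D libraries. In the band Pirb, Fpr2 and Slpi did not pass, at -0.61, -0.39 and -0.50, and Anxa3 did, at 0.53. In the double mutant 3 genes of the list rose in the gate against WT and the same 3 against G12D: Stfa2, BC100530 and Gm5483, which belong to the stefin cluster of cysteine protease inhibitors. Stfa2 and Gm5483 were at or near 0 outside G12D/E2-KO, at no more than 0.393 and 1.99 CPM in gated cells of the other libraries. They came into the test through the group where they are high, so their direction was fixed and no count is read from them. BC100530 had 1.39 to 4.12 CPM in WT, 9.83 to 18.5 CPM in E2-KO, 3.58 to 6.63 CPM in G12D and 73.7 to 519.7 CPM in G12D/E2-KO, which lay above all other libraries. Its log2 change from WT was 6.33 (edgeR adjusted p = 0.0113) and that from G12D was 5.51 (edgeR adjusted p = 0.0142). The first was lost without WT T3 (adjusted p = 0.0739) and the second without any 1 of the G12D libraries, and both with the T1 and T2 libraries alone. The stefin genes are near-identical copies, so their counts are uncertain. Over all cells the 5 genes of the list that rose in the double mutant against WT, and likewise against G12D, were these 3 with Stfa2l1 and Ptgs1 (cyclooxygenase 1). Of all genes 5.69% and 1.36% passed there. Ptgs1 rose by 0.84 against WT (edgeR adjusted p = 0.0133) and by 0.71 against G12D (edgeR adjusted p = 0.0407) on the log2 scale. It was not followed through the alternatives. Stfa2l1, at most 0.608 CPM over all cells of the other libraries, came into the test in the same way. In G12D against WT none passed in edgeR, with 1 of 33 in the gate and 2 of 34 over all cells at an unadjusted p under 0.05, below the 4.63% and 11.8% of all genes.

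Of 15 transcription factors of granulocyte differentiation 13 were tested in the gate. Klf5, a Krüppel-like factor, fell in E2-KO against WT by 1.24 on the log2 scale (SE 0.29, edgeR adjusted p = 0.0225), and it fell by 1.14 when the double mutant was set against G12D (SE 0.25, edgeR adjusted p = 0.0161). Each is 1 of 13, where 3.5% and 2.54% of genes passed, and a single call in so short a list says nothing about the list. Klf5 was sparse, at 11.8 to 19.1 CPM in WT, 5.17 to 9.82 CPM in E2-KO, 10.98 to 20.9 CPM in G12D and 5.48 to 12.1 CPM in G12D/E2-KO. The first call was lost without WT T2, WT T3 or any 1 E2-KO library (adjusted p up to 0.123), and the second without G12D T2 or G12D/E2-KO T2 (adjusted p up to 0.182). No other factor of the list passed in edgeR in any of the 4 comparisons between genotypes, with 1 to 4 of 13 in the gate and 2 to 7 of 14 over all cells at an unadjusted p under 0.05, where 4.63 to 18.5% and 11.8 to 26.2% of all genes were.

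The genes most like each of the 10 were named by Pearson's r of log2(CPM + 1) in gated cells over the 12 libraries, among 1755 genes with a mean of at least 50 CPM. The libraries share cell mix and depth, and the r values are descriptions. Ngp lay nearest to Tecr (r = 0.98), Vasp and Sri, and Mmp8 to Retnlg (r = 0.92), Mcemp1 and Ifitm6. Retnlg stood at 74.1 to 298 CPM in E2-KO and 253 to 713 CPM in WT. Lcn2 lay nearest to Dhrs7 (r = 0.93), Lsp1 and Glipr2, and Ltf to Mgst1 (r = 0.95), St3gal5 and Anxa1. Mmp9 lay nearest to AA467197 (r = 0.96), Tcp11l2 and Cd53, Cd177 to Wfdc21 (r = 0.81) and S100a6, and Camp to Gm8797 (r = 0.91), Ffar2 and Fam132a. Fcnb lay nearest to Stmn1 (r = 0.96), Ppia and Ndufs8, and Chil3 to Azin1 (r = 0.93), Hjurp and Ogfrl1. These last 3 follow G12D/E2-KO T3, where Azin1, Hjurp and Ogfrl1 stood at 107, 124 and 248 CPM against at most 83.9, 94.0 and 199.8 CPM in the other libraries. Itgb2l had the least similar nearest neighbours (Lbp at r = 0.75, then Mif and Atp5j2). Among the 10 themselves Ngp and Lcn2 were most alike (r = 0.83), and Mmp9 and Fcnb were most opposed (r = -0.77).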

How the data were processed

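The authors sequenced 10x Genomics 3′ libraries of c-Kit-enriched marrow, ran Cell Ranger on mm10 for each library, and removed cells with over 10% mitochondrial UMIs and cells that Scrublet called doublets. The deposited values are raw UMI counts per gene and cell, and no doublet caller was run again. The sources used here name no annotation release. The 10 genes, the lists around them and the gates were chosen with earlier results of these data known.

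G12D T1 cells that were found again in G12D/E2-KO T1 (cosine similarity above 0.9 over 8000 genes, with the 300 most abundant genes left out, where no other pair of libraries exceeded 0.8525) were counted in the latter only. Counts were summed per library, over all cells (12.6 to 23.6 M UMIs) and in the granulocyte gate (1.64 to 7.87 M UMIs), and divided by the summed UMIs to give CPM. Gated cells had median depths of 3293 to 5643 UMIs and the other cells 3982 to 8951. Intervals on counts would cover counting error only.

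Each reading was fitted in edgeR 4.0.16 (R 4.3.3; quasi-likelihood test, robust, TMM factors, filterByExpr) with genotype and time as terms over 12 libraries, which leaves 6 residual degrees of freedom, and Benjamini-Hochberg adjustment over the 12848 (all cells) or 9287 (gate) genes tested, at 0.05. SEs are on the log2 scale. Since nothing in the sources says how many animals gave a library, p-values measure the spread between these libraries. DESeq2 1.42.0, other gates, no filter on low counts, the fit without time, fits on the genotypes compared, other handling of the shared cells, granule and haemoglobin genes left out of the totals, and leaving out each library were alternatives. Shares of genes called by DESeq2, or with no filter, are over the 19993 (all cells) or 16534 (gate) genes with at least 1 UMI. They are not on the same base as the other edgeR shares. The fits of T1 and T2 alone and of the S100a8 and S100a9 band were added after seeing the data. Without replicates at a time point, the effect of time within a genotype was not tested. Gate shares were compared by exact sign-flip tests (Python 3.11.15, numpy 2.4.6). In the lists around the members, up to 4 genes that passed were named per list and comparison, by the size of the change. Ptgs1, and Serpinb1a in E2-KO against WT, were named beyond this rule. A gene that the rule on likeness to the members chose is not reported here. The edgeR step was tested on simulated data.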

Additional observations from a re-analysis of the deposited data

Results flagged for a closer look

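Itgb2l stood below WT in E2-KO and above G12D in G12D/E2-KO at each time, though barely below WT in the gate at T3. Itgb2l in E2-KO was 0.376, 0.371 and 0.527 times that of WT over all cells at T1, T2 and T3, and 0.673, 0.841 and 0.998 times in the gate. In G12D/E2-KO it was 5.38, 4.49 and 1.22 times that of G12D over all cells, and 4.45, 5.45 and 2.4 times in the gate. The difference was 3.03 on the log2 scale over all cells (edgeR adjusted p = 0.52) and 2.30 in the gate (edgeR adjusted p = 0.0616), so neither passed the test. The G12D libraries, the lowest of all in the gate, enter the fall from WT, the rise in G12D/E2-KO and this difference. These are not separate observations. Over all cells the E2-KO ratios cannot be told apart from the smaller share of gated cells.

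Among the genes of the surrounding lists, the effect of Ezh2 deletion differed between the NRas backgrounds by the test of the difference for Mpo in the gate (edgeR adjusted p = 0.0149), which was higher in E2-KO than in WT by more than in G12D/E2-KO than in G12D. An adjusted p under 0.05 was also given for the stefin gene Gm5483 over all cells (edgeR adjusted p = 0.0189) and in the gate (0.0412), and for Stfa2l1 over all cells (0.0469). Gm5483 stood at 0 to 1.99 CPM in gated cells of WT, 0 to 0.393 CPM in E2-KO, 0 to 0.229 CPM in G12D and 5.48 to 122 CPM in G12D/E2-KO. These stefin calls were each lost without any 1 of at least 6 of the 12 libraries, and the Mpo call without any 1 of 7. Stfa2l1 was at 0 in all 3 E2-KO libraries. Both genes came into the test through G12D/E2-KO, and with counts at or near 0 in WT and E2-KO these values do not show that the effect of Ezh2 deletion differed. No fold is given for them.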

How the results depend on the processing

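For the 50 results on single genes that covered members with an adjusted p under 0.1 and list genes named as called, none changed direction over 1124 alternatives, 889 kept their side of the threshold, 190 lost a call and 45 gained one. Smaller changes did cross 0: the gate median of the 8 members that are not gate genes went from -0.03 to 0.07 without WT T2 in G12D against WT, and from -0.09 to 0.02 without WT T3 in G12D/E2-KO against WT. Mmp8, Mmp9 and Itgb2l rest on few UMIs per library. The lack of a second library for any genotype and time, the mix of cells in the gate and the sex of the T3 double mutant limit the comparisons.

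Counts of the 10 genes called are given with the percent of all genes called by the same fit, except for ranges with 1 library left out. Those ranges span several fits in which the calls over all genes changed too, so they are not read as results about the 10 genes. Counts in the gate take in Camp and Ngp, which helped to choose the gated cells. Over all cells, E2-KO against WT (2, 1.59%) gave 5 (2.15%) in DESeq2, 5 (1.43%) with T1 and T2 alone, 9 (5.04%) with only the genotypes compared and 1 (1.3%) with the shared cells out of both tables, and 1 to 8 with 1 library left out. G12D against WT (0, 0.109%) gave 1 (0.147%) with T1 and T2 alone and 1 (0.197%) with only the genotypes compared, and 0 to 1 with 1 library left out. G12D/E2-KO against WT (0, 5.69%) gave 1 (6.4%) in DESeq2, and 0 to 3 with 1 library left out. G12D/E2-KO against G12D (0, 1.36%) gave 1 (2.37%) with T1 and T2 alone, and 0 to 3 with 1 library left out. The interaction (0, 0.0934%) gave 3 (0.275%) in DESeq2, 1 (0.264%) with T1 and T2 alone and 1 (0.11%) with no filter, and 0 to 1 with 1 library left out.

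In the gate, E2-KO against WT (3, 3.5%) gave 0 (1.9%) in the S100a8 and S100a9 band and 1 (1.36%) with T1 and T2 alone, 4 with no filter (3.87%) or with only the genotypes compared (7.09%), and 0 to 4 with 1 library left out. G12D against WT (1, 0.151%) gave 0 (0.073%) with the gate at 500 and 0 (0.0646%) with the tables as deposited, and 0 to 1 with 1 library left out. G12D/E2-KO against WT (0, 2.78%) gave 3 (1.26%) in DESeq2, 1 (2.83%) with T1 and T2 alone, 1 (2.86%) with the gate at 500, 5 (3.95%) with no filter, 1 (2.37%) with only the genotypes compared and 4 (3.89%) with the shared cells out of both tables, and 0 to 4 with 1 library left out. G12D/E2-KO against G12D (1, 2.54%) gave 2 (1.08%) in DESeq2, 2 (3.15%) with the gate at 500, 2 (3%) with the gate on S100a8 and S100a9 alone, 5 (3.54%) with no filter, 3 (3.63%) with only the genotypes compared, 5 (4.1%) with the shared cells out of both tables and 0 (0.0323%) with the tables as deposited, and 1 to 5 with 1 library left out. In each of these fits with a call Itgb2l was higher and the other genes called were lower. The interaction (0, 0.0754%) gave 1 (0.0968%) in DESeq2, 1 (0.0946%) in the band, 2 (0.547%) with T1 and T2 alone, 1 (0.0893%) with the gate at 2000, 2 (0.387%) with no filter and 1 (0.097%) with the shared cells out of both tables, and 0 to 1 with 1 library left out. Gate shares ran from -17.8 to -12.0 points for Ezh2 and from 4.00 to 9.31 points for NRas with 1 library left out, where the exact test on the 5 pairs left cannot go below p = 0.0625. The causes were not tested.

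Time is a term of the reported fits, as planned. Same-time libraries deviated together more than other pairs did (median correlation 0.167 against -0.121 over all cells, 0.127 against -0.0565 in the gate), but not in every pair: the range was -0.298 to 0.513 over all cells (over 0.1 in 11 of 18 pairs) and -0.35 to 0.607 in the gate (9 of 18), so pairing by time is not shown. Both highest values were those of G12D T1 with G12D/E2-KO T1, the libraries deposited with shared cells. Without time as a replicate block, E2-KO against WT gave 1 gene over all cells (Chil3, with 1.48% of all genes called) and 1 in the gate (Lcn2, 2.18%), and the interaction gave 1 in the gate (Itgb2l, 0.0538%). Of the list genes followed through the alternatives in the gate, Elane, Pirb, Fpr2, Anxa3 and Klf5 in E2-KO against WT, Srgn, Klf5 and Gm5483 in G12D/E2-KO against G12D, Gm5483 in G12D/E2-KO against WT, and Mpo and Gm5483 in the interaction lost their calls without the block, as did Stfa2l1 against G12D and Gm5483 and Stfa2l1 in the interaction over all cells.

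Over all genes and every alternative run, leaving out 1 library included, E2-KO against WT ranged from 66 (without WT T2) to 623 (only the genotypes compared) calls over all cells, where the reported fit gave 204, and from 83 (without WT T2) to 640 (no filter) in the gate (325). G12D against WT ranged from 4 to 143 (14) and from 5 to 135 (14). G12D/E2-KO against G12D ranged from 3 to 354 (175) and from 3 to 585 (236), the lowest in each with the tables as deposited. G12D/E2-KO against WT ranged from 91 to 1368 (731) and from 81 to 653 (258), each lowest without WT T3. The interaction ranged from 0 to 55 (12) and from 2 to 64 (7).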
